A study of Mus musculus with 24 samples.

Results

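Messenger RNA levels of 10 enzymes and enzyme partners that write, copy or remove 2 repressive chromatin marks were described in murine neuroblastoma and adrenal gland. The genes were Ezh1, Ezh2, Eed and Suz12 of the Polycomb repressive complex PRC2, and Dnmt1, Dnmt3a, Dnmt3b, Uhrf1, Hells and Tet1 of the DNA methylation machinery. They were chosen by name, and each had 1 row among the 21833 genes of the deposited expression table.

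PRC2 places methyl groups on lysine 27 of histone H3 and thereby keeps developmental genes silent. EZH2 is its catalytic subunit in dividing cells and EZH1 the catalytic subunit that prevails in resting and differentiated cells, while EED and SUZ12 hold the complex together with either enzyme. DNMT1 copies CpG methylation after DNA replication, guided to hemimethylated DNA by UHRF1 and helped by the chromatin remodeler HELLS. DNMT3A and DNMT3B set methylation on unmethylated DNA, and TET1 oxidizes methylcytosine, a step in its removal. In neuroblastoma, a childhood tumor of the sympatho-adrenal lineage, EZH2 is known for silencing differentiation genes.

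RNA-seq of 24 mouse samples, from poly(A)-enriched and strand-specific libraries, fell into 4 groups. AG were adrenal glands labelled CRE - (n = 3). AGM were adrenal glands with the genotype MYCN +/-, CRE + that had not formed a tumor (n = 5). TI were tumors carrying the IGF2BP1 transgene with CRE +, of which 1 was labelled +/- and 7 were labelled +/+ (n = 8). TIM were tumors with the genotype IMP1/MYCN, CRE +, where IMP1 is another name of IGF2BP1 (n = 8). Both transgenes sat behind a stop cassette in the Rosa26 locus and were switched on by an iCRE under the Dbh promoter, which is active in noradrenergic cells and not in adrenal cortex, vessels or leukocytes. Ages were not in the labels. By the study's account AGM mice were culled at a later age than homozygous TI mice and than TIM mice at the median, and the age of AG mice is not given in the sources used here, so age cannot be told apart from the groups. The study counts its samples as mice but the labels do not tie each library to a mouse, so p-values measure the spread between these libraries. The mouse Igf2bp1 gene, which does not measure the transgene, had at most 0.0796 FPKM in any library, and endogenous Mycn ranged from 1.57 to 15.6 FPKM in TI and from 1.20 to 4.38 FPKM in TIM against 0.559 to 0.823 FPKM in AG.

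Levels are given as FPKM, the fragments of a gene divided by its length in kilobases and by the authors' normalized library size in units of 1000000. That library size was large. FPKM recomputed from the reads of each library outside the 126 genes above 1000 FPKM were 5.98 to 6.19 times higher in AG and 5.58 to 6.47 times in TI, but 4.62 to 6.13 times in TIM and 3.54 to 5.02 times in AGM. The deposited values therefore serve as relative levels with a scale that differs between groups, most for AGM, and contrasts with AGM are given with the recomputed values where these change a call or a sign. The reads outside those genes numbered 12334076 to 23683176 per library. Adrenal cortex markers (8 genes) summed to between 645 and 667 FPKM in AG and between 4293 and 5373 FPKM in AGM, and to at most 10.1 FPKM in TI and 9.28 FPKM in TIM. Markers of the sympatho-adrenal lineage (10 genes) were expressed in all groups, with sums from 140 to 201 FPKM for AG, whereas AGM had 1280 to 2154 FPKM, TI had 351 to 1773 FPKM and TIM had 334 to 4720 FPKM. In bulk tissue, fewer cells of a type and less RNA per cell cannot be told apart. All AG libraries were sequenced in run 1 and all AGM libraries in run 2, while TIM came from runs 2 and 3, so neither AGM nor TIM shared a run with AG, and the 2 cannot be told apart there. Columns carried no sample number, and library numbers used here are names only. TIM library 5 stood apart: it was the lowest TIM library for 7 of the 10 genes and the highest for Ezh1. It also had the lowest Mki67 (0.0328 FPKM, a marker of dividing cells) and the highest cortex (9.28 FPKM), adipocyte (48.4 FPKM) and Schwann cell (23.9 FPKM) marker sums of the TIM libraries. Its sums of sympatho-adrenal (4720 FPKM), leukocyte (38.5 FPKM) and fibroblast (27.9 FPKM) markers were the highest of TIM as well. The part of these in its values was not tested, and results that rest on it are given with and without it. TI library 4 was the lowest TI library for Ezh2, Eed, Suz12, Dnmt1, Dnmt3b, Uhrf1, Hells and Tet1 and the highest for Ezh1. Among TI libraries it also had the lowest Mki67 (1.46 FPKM) and the highest endothelial (19.8 FPKM) and fibroblast (57.0 FPKM) marker sums. Its cortex sum was 0.0422 FPKM. The part of other cells in the values of TI library 4 was not tested either.

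Promoters of 3 genes that were higher in tumors and hold one of the motifs are shown with that of Ezh1, which went the other way. Each is the 250 bases before an annotated start in RefSeq on GRCm38.p6, 5′ to 3′ on the strand of the gene. Capitals mark matches on either strand to TTTNNCGC, a form of the site bound by E2F factors of the cell cycle, or to CCAAT, bound by the factor NF-Y. The motifs do not overlap here. Uhrf1 has a pair of start sites.
Ezh2 (chr6:47595031-47595280, minus strand): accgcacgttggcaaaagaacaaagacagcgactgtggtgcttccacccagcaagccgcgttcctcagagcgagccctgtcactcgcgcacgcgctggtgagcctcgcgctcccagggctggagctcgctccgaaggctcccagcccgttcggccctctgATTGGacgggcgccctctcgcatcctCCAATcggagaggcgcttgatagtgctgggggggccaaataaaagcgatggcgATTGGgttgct
Uhrf1 (chr17:56303087-56303336, plus strand): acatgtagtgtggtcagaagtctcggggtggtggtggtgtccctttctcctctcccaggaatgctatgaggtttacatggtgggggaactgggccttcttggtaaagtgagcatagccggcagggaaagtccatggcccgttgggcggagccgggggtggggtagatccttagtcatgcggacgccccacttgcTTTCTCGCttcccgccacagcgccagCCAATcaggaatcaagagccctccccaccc
Uhrf1 (chr17:56304063-56304312, plus strand): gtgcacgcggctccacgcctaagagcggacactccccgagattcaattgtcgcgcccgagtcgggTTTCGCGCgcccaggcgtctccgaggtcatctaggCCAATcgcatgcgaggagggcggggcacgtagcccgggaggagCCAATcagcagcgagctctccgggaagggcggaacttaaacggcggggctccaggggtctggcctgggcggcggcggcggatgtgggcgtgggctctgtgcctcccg
Hells (chr19:38930740-38930989, plus strand): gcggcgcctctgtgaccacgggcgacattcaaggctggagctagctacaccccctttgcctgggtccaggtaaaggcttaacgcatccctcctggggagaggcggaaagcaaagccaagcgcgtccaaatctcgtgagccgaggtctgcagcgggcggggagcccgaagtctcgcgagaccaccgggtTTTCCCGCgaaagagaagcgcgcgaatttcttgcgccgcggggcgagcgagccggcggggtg
Ezh1 (chr11:101226464-101226713, minus strand): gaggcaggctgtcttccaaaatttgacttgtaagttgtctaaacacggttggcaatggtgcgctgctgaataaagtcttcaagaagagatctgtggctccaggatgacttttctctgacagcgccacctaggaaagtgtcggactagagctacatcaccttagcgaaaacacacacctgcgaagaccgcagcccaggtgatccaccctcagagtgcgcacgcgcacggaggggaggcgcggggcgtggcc

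All 10 genes were matched to promoters, Dnmt1 and Dnmt3a with 3 windows each and Uhrf1 with 2. A gene was counted if any of its windows held the motif, while the shares set beside the counts are over single promoters. Genes with several windows thus had more chances to match, and count and share are not on the same footing. The E2F-like letters were found for 4 of them (Suz12, Dnmt1, Uhrf1 and Hells), against 4.28% of the 32851 promoters of the same length. CCAAT was found for 4 (Ezh2, Suz12, Dnmt1 and Uhrf1), against 33.8% of promoters. Neither stood in the windows of 5 of the 10, namely Ezh1, Eed, Dnmt3a, Dnmt3b and Tet1, so genes higher in TI (Dnmt3a, Tet1) are among those without a match. The cell-cycle element CHR (TTTGAA) was found for 4 of the genes against 16.0% of promoters, and the MYC-type E-box CACGTG for 1, Dnmt3a, against 6.02%. A match describes the letters of the window and is no evidence of binding.

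Of the 10 genes, 8 reached 1 FPKM in at least 3 libraries and were tested with limma on log2(FPKM + 1) along with all 10171 genes that did so. Dnmt3b and Tet1 did not. Ezh2, Dnmt3a, Uhrf1 and Hells reached 1 FPKM in tumors and in no gland, so passing already favored a higher value in tumors. Eed reached it in the 3 AG libraries and 1 of TI, and Ezh1 in all 8 glands and in 1 library each of TI and TIM, which favored a lower value in the other groups. Counts over the tested genes are given as a description. In TI vs AG, 4 of 8 were higher and 1 was lower at a false discovery rate (FDR) below 0.05, where 24.6% of all tested genes were higher and 27.7% lower. The TIM vs AG contrast had 1 higher and 2 lower, against 22.5% and 28.5% of all genes. In AGM vs AG none was higher and 2 were lower, against 14.6% and 14.0%. Between the tumor groups, TIM vs TI, none was higher and 2 were lower, against 10.0% and 12.9%. TIM vs AGM had 6 higher and 1 lower, against 31.9% and 33.4%. The median log2 fold change of the 8 genes was 0.59 in TI vs AG, 0.34 in TIM vs AG, -0.25 in AGM vs AG, -0.31 in TIM vs TI and 0.63 in TIM vs AGM, beside medians over all tested genes between -0.0049 and 0.033. TI vs AG, TIM vs AG and AGM vs AG share the AG libraries.

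**Figure D1:**
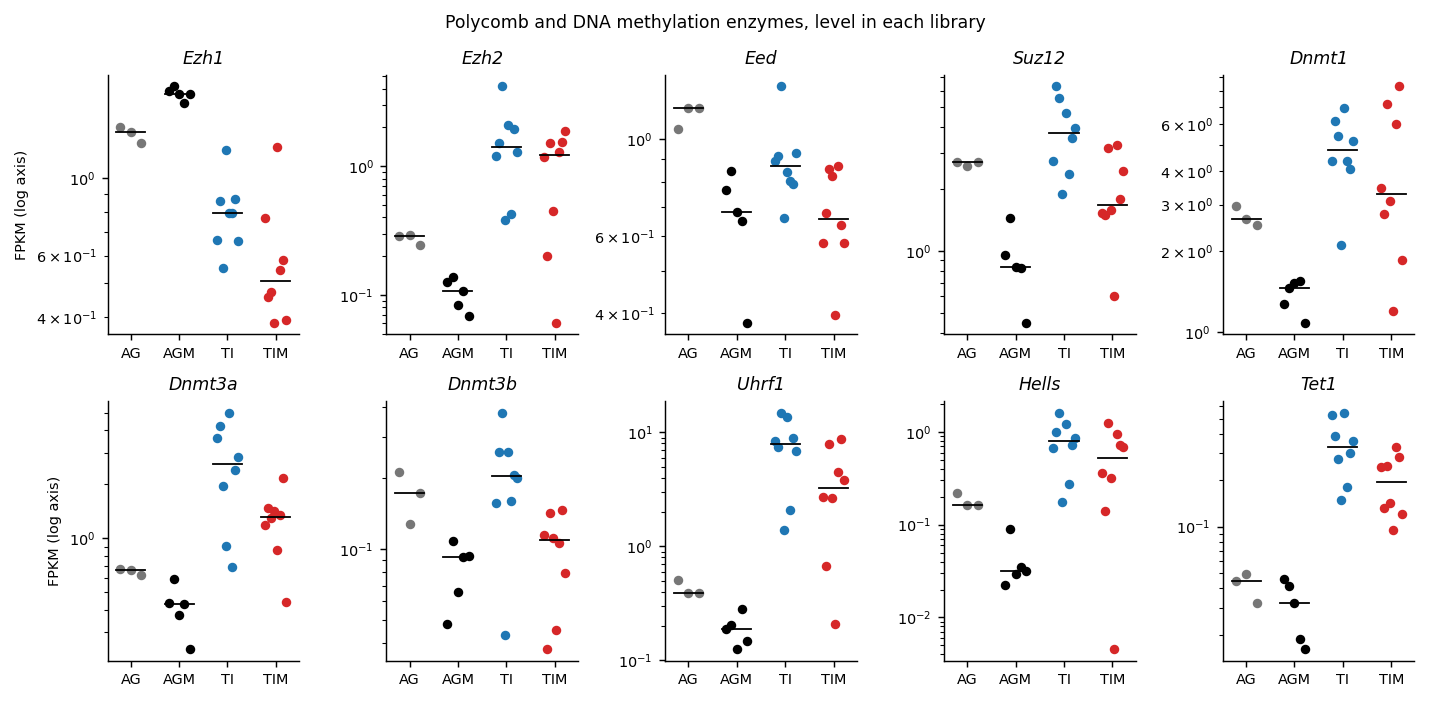
FPKM (log axis) of the 10 genes in each library of AG (n = 3), AGM (n = 5), TI (n = 8) and TIM (n = 8). Points are libraries and bars are group medians. Ezh1 is highest in the glands, Uhrf1, Ezh2, Hells and Tet1 have their highest values in tumors, and the lowest red point in 7 panels is TIM library 5.

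The catalytic subunits of PRC2 changed in opposite directions from gland to tumor. Ezh1 (chr11:101081934-101117315 of GRCm39, minus strand) had 1.40, 1.35 and 1.26 FPKM in the 3 AG libraries and 1.77, 1.83, 1.73, 1.63 and 1.74 FPKM in the 5 AGM libraries. In TI it ranged from 0.552 over a median of 0.794 to 1.20 FPKM, and in TIM from 0.387 over 0.509 to 1.22 FPKM. Every tumor library of either group was below every gland library. Ezh1 fell by 0.38 in TI (SE 0.11, FDR 0.00761) and by 0.56 in TIM (SE 0.11, FDR 0.000297) against AG, and by 0.79 in TIM vs AGM (SE 0.097, FDR 2.76e-07), all as limma log2 fold changes. Mean levels were 1.67-fold higher in AG than in TI and 2.21-fold higher in AG than in TIM. The AGM libraries all lay above AG, with a log2 difference of 0.23 that did not pass (limma FDR 0.171), and this turned to -0.079 when FPKM were recomputed. TIM differed from TI by -0.18 (limma FDR 0.136), and by -0.25 with an FDR of 0.0140 without TIM library 5. With every library kept, this difference was also called with recomputed FPKM (-0.48, limma FDR 0.0232). The same held with limma-voom on the recovered reads (-0.57, FDR 0.0310).

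Ezh2 (chr6:47507073-47572331, minus strand) had 0.287, 0.294 and 0.243 FPKM in AG and 0.126, 0.137, 0.0839, 0.107 and 0.0680 FPKM in AGM. TI spanned 0.380 to 4.18 FPKM with a median of 1.41, and TIM spanned 0.0609 to 1.87 FPKM with a median of 1.23. All 8 TI libraries exceeded AG. Of the TIM libraries, 2 were below AG, namely library 5 and library 2 with 0.202 FPKM, and the other 6 were above it. Ezh2 rose in TI vs AG by 0.93 (SE 0.31, limma FDR 0.0167), a 5.93-fold higher mean, and in TIM vs AGM by 0.78 (SE 0.27, limma FDR 0.0134). In TIM vs AG the difference was 0.57 (95% confidence interval -0.078 to 1.23, limma FDR 0.134), and 0.69 with an FDR of 0.0558 without library 5. TIM vs TI gave -0.35 (interval -0.83 to 0.13). With limma-voom on the recovered reads the log2 fold change of Ezh2 in TI vs AG was 2.18 and was not called (FDR 0.115), and without AG library 3 its limma FDR was 0.0552.

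Because both enzymes were measured in the same library, the library size cancels from the ratio of their FPKM, though not fully from the tested log2 ratios, which carry a pseudocount of 0.01 FPKM. The ratio of Ezh2 to Ezh1 FPKM was 0.206, 0.218 and 0.193 in AG and between 0.0391 and 0.0750 in AGM. TI had a lowest ratio of 0.316, a median of 1.89 and a highest of 7.57, and TIM had a lowest of 0.0498, a median of 1.95 and a highest of 4.77. Ezh2 exceeded Ezh1 in 6 of 8 TI and in 6 of 8 TIM libraries and in no gland. On the log2 scale the mean ratio was 2.94 higher in TI than in AG (exact permutation test, two-sided, adjusted p = 0.0152 over 5 contrasts, and p = 0.00606 is the smallest this design allows). In AGM vs AG the difference was -1.73 (exact permutation, adjusted p = 0.0298). With any AG library left out these differences were 2.89 to 2.98 in TI and -1.77 to -1.69 in AGM, and neither passed (exact permutation, adjusted p = 0.0556 and 0.0794), where 2 AG libraries allow no p below 0.0222 and 0.0476 before adjustment. In TIM vs AGM it was 4.23 (exact permutation, adjusted p = 0.0152). TIM vs AG differed by 2.50 (exact permutation, adjusted p = 0.0985), which became 3.12 with an adjusted p of 0.0139 (exact permutation) without TIM library 5. That library had a ratio of 0.0498, within the AGM range, while library 2 had 0.441 and the other 6 lay between 1.15 and 4.77. The difference between TIM and TI was -0.44 (exact permutation, adjusted p = 0.647), and 0.19 without library 5.

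**Figure D2:**
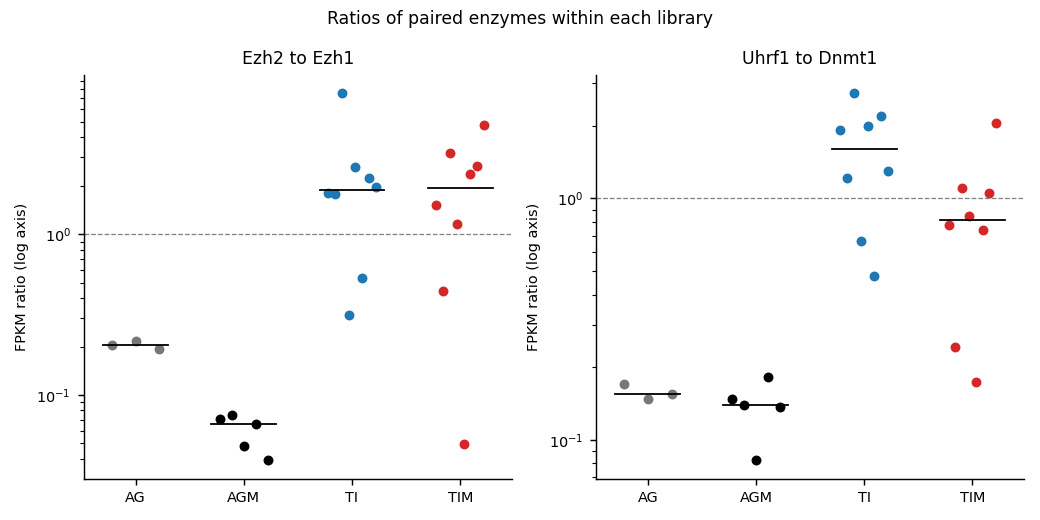
FPKM ratio (log axis) of Ezh2 to Ezh1 and of Uhrf1 to Dnmt1 in each library by group. Points are libraries, bars are group medians and the dashed line is a ratio of 1. In both panels all gland libraries lie below 1, and 6 of 8 TI libraries lie above 1.

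Of the core subunits that both enzymes share, neither was called higher in tumors than in AG, and both were lower in AGM than in AG. Eed (chr7:89603862-89630217, minus strand), which binds the methylated histone tail, had 1.05, 1.18 and 1.18 FPKM in AG and 0.767, 0.845, 0.683, 0.652 and 0.381 FPKM in AGM. TI ranged from 0.660 over a median of 0.868 to 1.32 FPKM and TIM from 0.396 over 0.658 to 0.868 FPKM. AGM and TIM libraries all lay below AG. Eed fell by 0.36 in TIM vs AG (SE 0.10, limma FDR 0.00549) and by 0.37 in AGM vs AG (SE 0.11, limma FDR 0.0151). In TI vs AG it differed by -0.18 (interval -0.39 to 0.030, limma FDR 0.144). TIM and AGM differed by 0.011 (interval -0.17 to 0.19), a sign that turned under several alternatives. Without AG library 2 or AG library 3, the fall in AGM was no longer called (limma FDR 0.0582 and 0.0576).

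Suz12 (chr11:79883891-79925421, plus strand), the scaffold of PRC2, had the lowest FDR of the 8 tested genes in TIM vs TI. AG had 2.72, 2.60 and 2.72 FPKM, and AGM had 0.950, 1.44, 0.831, 0.822 and 0.447 FPKM. TI ranged from 1.90 over a median of 3.76 to 6.33 FPKM, while TIM ranged from 0.600 over 1.68 to 3.27 FPKM. AGM lay wholly below AG, and the tumor groups overlapped. Suz12 fell by 0.71 in TIM vs TI (SE 0.20, limma FDR 0.0127), a 1.96-fold higher mean in TI, and by 0.59 with an FDR of 0.0265 without TIM library 5. It fell by 0.97 in AGM vs AG (SE 0.29, limma FDR 0.0140) and rose by 0.61 in TIM vs AGM (SE 0.22, limma FDR 0.0211). The latter was not called without AGM library 5 (0.52, limma FDR 0.0680). Neither tumor group passed against AG, at 0.35 (interval -0.21 to 0.90) in TI and -0.36 (interval -0.91 to 0.19) in TIM.

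Overlapping genes on the other strand bear on 3 of these values, since the sources used here do not state whether counting used strand. In GENCODE M39, Suz12 shares 26752 bases of its locus, introns included, with Crlf3, Ezh2 shares 3248 with Cul1, and Ezh1 shares 814 with Cntnap1. Crlf3 was also lower in TIM vs TI, by a log2 difference of -0.43 (limma FDR 0.00620). Cul1 did not pass in TI vs AG (0.16, limma FDR 0.498), but it rose in TIM vs AGM by 0.68 (limma FDR 0.000785), where Ezh2 also rose, and fell by 0.78 in AGM vs AG (limma FDR 0.00588), where Ezh2 was lower on average. Cntnap1 rose where Ezh1 fell, by 0.62 in TI vs AG (limma FDR 0.0124) and 0.66 in TIM vs AG (limma FDR 0.00903). In AGM vs AG it rose by 0.59 (limma FDR 0.0449), the direction in which Ezh1 lay there. The part of these neighbors in the values was not tested.

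The maintenance arm of DNA methylation held the gene with the largest fold change of the 8. Uhrf1 (chr17:56610275-56630489, plus strand) had 0.505, 0.393 and 0.389 FPKM in AG and 0.188, 0.205, 0.126, 0.282 and 0.149 FPKM in AGM. TI libraries ranged from 1.40 over a median of 7.93 to 14.9 FPKM, and TIM libraries from 0.206 over 3.25 to 8.80 FPKM. All TI libraries and all TIM libraries but library 5 exceeded AG. Uhrf1 rose by 2.41 in TI vs AG (SE 0.55, limma FDR 0.000799), an 18.6-fold higher mean, by 1.47 in TIM vs AG (SE 0.55, limma FDR 0.0283) and by 1.74 in TIM vs AGM (SE 0.46, limma FDR 0.00237). Without TIM library 5 the rise in TIM vs AG was 1.72 (limma FDR 0.00628). With all TIM libraries kept, the call in TIM vs AG was lost when any 1 of the 3 AG libraries was left out (limma FDR between 0.0674 and 0.0791), in a fit of TIM and AG alone (limma FDR 0.0588) and with limma-voom (log2 fold change 2.37, FDR 0.160). TIM vs TI gave -0.93 (interval -1.77 to -0.092, limma FDR 0.0994).

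Dnmt1 (chr9:20817945-20871184, minus strand), the enzyme that UHRF1 recruits, changed less. It had 2.95, 2.65 and 2.51 FPKM in AG, 1.27, 1.46, 1.53, 1.55 and 1.08 FPKM in AGM, 2.11 to 6.91 FPKM in TI with a median of 4.79, and 1.19 to 8.33 FPKM in TIM with a median of 3.28. The TI range reached below AG through library 4 alone, and TIM overlapped both gland groups. Dnmt1 rose in TIM vs AGM by 0.98 (SE 0.27, limma FDR 0.00365). It differed from AG by 0.61 in TI (interval -0.065 to 1.29, limma FDR 0.122), by 0.34 in TIM (interval -0.34 to 1.01) and by -0.64 in AGM (interval -1.37 to 0.087), none of which passed.

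The ratio of Uhrf1 to Dnmt1 accordingly shifted. It was 0.171, 0.148 and 0.155 in AG and between 0.0824 and 0.182 in AGM. In TI it ran from 0.479 over a median of 1.61 to 2.74, and in TIM from 0.173 over 0.814 to 2.06. Uhrf1 exceeded Dnmt1 in 6 of 8 TI libraries, and in 3 of 8 from TIM. The mean log2 ratio was higher than in AG by 3.07 in TI and by 2.101 in TIM, and higher in TIM than in AGM by 2.30 (exact permutation tests, two-sided, adjusted p = 0.0101 for each). Leaving out 1 of TIM libraries 1, 3, 4, 6 or 7 lost the call in TIM vs AG (exact permutation, adjusted p up to 0.0694, difference 2.00 to 2.09). AGM vs AG differed by -0.20 (exact permutation, adjusted p = 0.554) and TIM vs TI by -0.97 (exact permutation, adjusted p = 0.0998).

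Hells (chr19:38919359-38960047, plus strand), a remodeler of the SNF2 family needed for methylation of repeats, had 0.217, 0.165 and 0.162 FPKM in AG and 0.0222, 0.0892, 0.0294, 0.0353 and 0.0315 FPKM in AGM. TI ranged from 0.175 over a median of 0.796 to 1.61 FPKM and TIM from 0.00457 over 0.522 to 1.24 FPKM. The lowest TIM value, in library 5, rested on 3 reads, and the lowest TI value, in library 4, lay within the AG range. Hells rose by 0.58 in TI vs AG (SE 0.21, limma FDR 0.0273) and by 0.53 in TIM vs AGM (SE 0.18, limma FDR 0.0134). The call in TI vs AG was lost when any AG library was left out (limma FDR between 0.0614 and 0.0785) and with limma-voom (log2 fold change 1.86, FDR 0.245), which also lost Hells (3.20, FDR 0.174) and Ezh2 (3.02, FDR 0.0824) in TIM vs AGM. In TIM vs AG the difference was 0.35 (limma FDR 0.181).

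Of the enzymes that set new methylation, Dnmt3a rose in TI and Dnmt3b stayed at low values. Dnmt3a (chr12:3856007-3964443, plus strand) had 0.673, 0.667 and 0.627 FPKM in AG, and 0.435, 0.596, 0.376, 0.430 and 0.243 FPKM in AGM. TI ranged from 0.694 over a median of 2.60 to 5.00 FPKM and TIM from 0.444 over 1.32 to 2.17 FPKM. Every TI library exceeded every AG library, the lowest of them by little, and of TIM only library 8 lay below AG. Dnmt3a rose by 1.04 in TI vs AG (SE 0.28, limma FDR 0.00389), a 4.11-fold higher mean, and by 0.66 in TIM vs AGM (SE 0.24, limma FDR 0.0199). It fell by 0.61 in TIM vs TI (SE 0.21, limma FDR 0.0394), a call that was lost in most fits that left out 1 tumor library (limma FDR up to 0.0888), among them TIM library 5 (-0.57, FDR 0.0701), and without the gland groups (FDR 0.112). TIM vs AG gave 0.43 (interval -0.16 to 1.01, limma FDR 0.217).

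Dnmt3b (chr2:153490861-153529650, plus strand) was read 69 to 116 times in AG, 24 to 194 times in TI, 18 to 86 times in TIM and 20 to 51 times in AGM. With the genes above 1000 FPKM set aside, levels in reads per 1000000 (RPM) were 6.37 ± 2.88 in TI and 2.79 ± 1.20 in TIM (SD, n = 8 each), beside 5.32 ± 1.35 in AG (SD, n = 3) and 1.81 ± 0.522 in AGM (SD, n = 5). Dnmt3b was lower in TIM than in TI by an RPM difference of -3.58 (exact permutation, adjusted p = 0.0249) and lower in AGM than in AG by -3.51 (exact permutation, adjusted p = 0.0404). TIM vs AG gave -2.54 RPM (exact permutation, adjusted p = 0.0404), which on deposited FPKM was no longer called (exact permutation, adjusted p = 0.0606). TI and AG did not separate, at a difference of 1.05 RPM (exact permutation, adjusted p = 0.545). With any AG library left out, the differences from AG were -3.21 to -1.85 RPM in TIM and -4.18 to -2.83 RPM in AGM. Both calls were lost there (exact permutation, adjusted p from 0.0556 to 0.148), under the limit of 2 AG libraries given for the ratio. A lost call alone therefore does not measure stability. In TIM vs AG the adjusted p was 0.0556 without AG library 2, but 0.148 without AG library 1 or 3 (exact permutation). With all AG libraries kept, the call in TIM vs AG was also lost without TIM library 1, 4, 6 or 8, so it was not stable.

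Tet1 (chr10:62640349-62744775, minus strand), which acts against the methyltransferases, was low in all samples and higher in every tumor than in any gland. AG had 0.0446, 0.0492 and 0.0323 FPKM and AGM had 0.0463, 0.0416, 0.0322, 0.0187 and 0.0162 FPKM. TI ranged from 0.149 over 0.328 to 0.546 FPKM, and TIM from 0.0952 over 0.193 to 0.328 FPKM. Behind these stood 251 to 1079 reads in TI and 134 to 498 in TIM, but 53 to 80 in AG and 21 to 59 in AGM. In RPM, Tet1 was higher than in AG (3.96 ± 0.861, SD, n = 3) by 27.7 in TI and by 13.1 in TIM (exact permutation, adjusted p = 0.0303 for both). It was lower in TIM than in TI by an RPM difference of -14.6 (exact permutation, adjusted p = 0.0303) and higher in TIM than in AGM by 14.8 (exact permutation, adjusted p = 0.0155). Mean FPKM were 8.08-fold higher in TI and 4.73-fold higher in TIM than in AG. With any AG library left out, the differences from AG were at least 27.2 RPM in TI and 12.6 RPM in TIM, at exact permutation adjusted p from 0.0556 to 0.0952, under the same limit of 2 AG libraries.

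**Figure D3:**
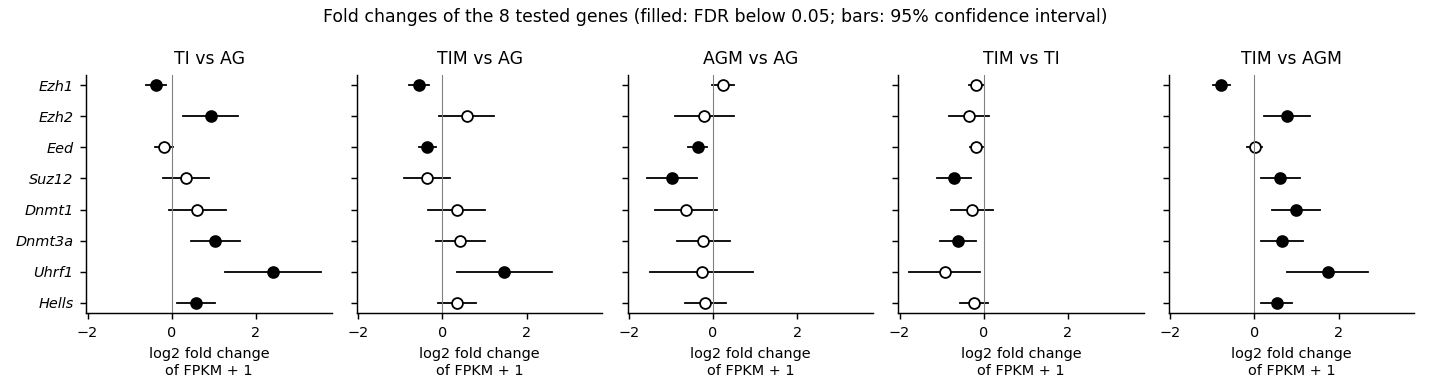
Log2 fold changes of FPKM + 1 (horizontal axis) with 95% confidence intervals for the 8 tested genes in 5 contrasts. Filled points passed an FDR below 0.05. Ezh1 lies left of 0 in the contrasts of tumors with glands, and Uhrf1 lies farthest right in TI vs AG at 2.41.

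In AGM vs AG, 7 of the 8 tested genes were lower on average, with Ezh1 the exception. The FPKM of 7 of the 8 lay below every AG library and those of 1, Ezh1, above, where 32.5% of all tested genes lay wholly below and 29.4% wholly above. Limma called Suz12 and Eed alone in the fit of all groups, and all 8 in a fit of the AG and AGM libraries alone, in which 6312 genes were called instead of 2908. FPKM recomputed from the recovered reads shifted the median of all genes in this contrast by -0.41 and the split of calls from 1488 higher and 1420 lower to 974 and 3630. Dnmt1 was then also called lower (log2 fold change -1.31, limma FDR 0.0231). AGM also had higher cortex and sympatho-adrenal marker sums, a run not shared with AG and a smaller library-size factor (3.54 to 5.02), and by the study's account its mice were kept longer than most tumor-bearing mice lived. The part of these in the differences cannot be told apart.

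Within each tumor group, levels of several of the genes followed a proliferation index, the mean log2(FPKM + 1) of 20 cell-cycle genes that hold none of the 10. The index ranged from 1.06 to 3.27 in TI and from 0.263 to 2.58 in TIM, against 0.778 to 0.863 in AG and 0.367 to 0.499 in AGM. Ezh2 correlated with it at Pearson r = 0.938 in TI (Spearman rho = 0.929) and r = 0.961 in TIM (rho = 0.929), with exact permutation p adjusted over 20 relations of 0.00215 and 0.00186 (n = 8 each). Uhrf1 gave r = 0.935 in TI (rho = 0.810) and r = 0.952 in TIM (rho = 0.881), with exact permutation adjusted p of 0.00360 and 0.00186. Hells gave r = 0.959 in TI (rho = 0.952) and r = 0.948 in TIM (rho = 0.905), with exact permutation adjusted p of 0.00186 and 0.00215. The exact permutation adjusted p of rho lay between 0.00761 and 0.0484 for these 3 genes, and the unadjusted exact permutation p of r between 0.000223 and 0.00144. Without the 2 libraries farthest from the median index, r remained between 0.805 and 0.920 for the 3 genes (n = 6).

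Suz12 followed the index as well, with r = 0.912 in TI (rho = 0.952) and r = 0.865 in TIM (rho = 0.833) and exact permutation adjusted p of 0.00262 and 0.0101, and its r was 0.876 and 0.705 without the 2 farthest libraries. Its rho passed in both (exact permutation adjusted p = 0.00761 and 0.0384). Without TIM library 5, r of Suz12 in TIM was 0.732 and no longer passed (exact permutation adjusted p = 0.109). Dnmt3b had r = 0.957 in TI (rho = 0.976, exact permutation adjusted p = 0.00186), and r = 0.782 in TIM (rho = 0.619, exact permutation adjusted p = 0.0386), where the relation rested on the 2 farthest libraries (r = 0.209 without them). Eed in TI had r = 0.797 (rho = 0.667, exact permutation adjusted p = 0.0386), resting on them too (r = 0.310). Dnmt1 had r = 0.813 in TI (rho = 0.762, exact permutation adjusted p = 0.0343), and r = 0.609 without them, while its r of 0.697 in TIM did not pass (rho = 0.595, exact permutation adjusted p = 0.0838). That of Dnmt1 was 0.963 without TIM library 8 (exact permutation adjusted p = 0.00248), and the pass in TI was lost without TI library 2, 4 or 6, r falling to 0.533 without library 4. Nor did Eed pass in TIM (r = 0.545, rho = 0.381, exact permutation adjusted p = 0.184). With recomputed FPKM, Dnmt1 in TIM passed (r = 0.755) and Eed in TI did not (r = 0.772, exact permutation adjusted p = 0.0457 and 0.0511). With Mki67 in place of the index, Dnmt1 (r = 0.797) and Eed (r = 0.795) passed in TIM, each with an exact permutation adjusted p of 0.0311. Eed in TI did not pass there (r = 0.693, exact permutation adjusted p = 0.104). By rho, Dnmt3b passed in TI (exact permutation adjusted p = 0.00761), and Dnmt3b in TIM (0.192), Eed in TI (0.151) and Dnmt1 in TI (0.0735) did not.

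Ezh1, Dnmt3a and Tet1 did not pass in either group on the deposited FPKM. Ezh1 had r = -0.709 in TI (rho = -0.429) and r = -0.587 in TIM (rho = -0.238), with exact permutation adjusted p of 0.0791 and 0.132, and r turned to 0.352 in TI without the 2 farthest libraries. With recomputed FPKM, Ezh1 in TI passed (r = -0.810, exact permutation adjusted p = 0.0328). Dnmt3a had r = 0.650 in TI (rho = 0.500) and r = 0.0733 in TIM (rho = -0.0952), with exact permutation adjusted p of 0.104 and 0.867. Tet1 had r = 0.527 in TI (rho = 0.429) and r = 0.634 in TIM (rho = 0.500), with exact permutation adjusted p of 0.189 and 0.119. The exact permutation adjusted p of rho was at least 0.288 for these 3 genes. Leaving out 1 library brought Dnmt3a in TI to r = 0.871 (without library 3) and Tet1 in TIM to r = 0.872 (without library 8), each with an exact permutation adjusted p of 0.0263 or 0.0264. Over the other tested genes, r with the index had a median of -0.0707 in TI and -0.144 in TIM, and its 95th percentile was 0.846 and 0.866. All values of a library share its normalization, and relations within a sequencing run could not be computed.

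**Figure D4:**
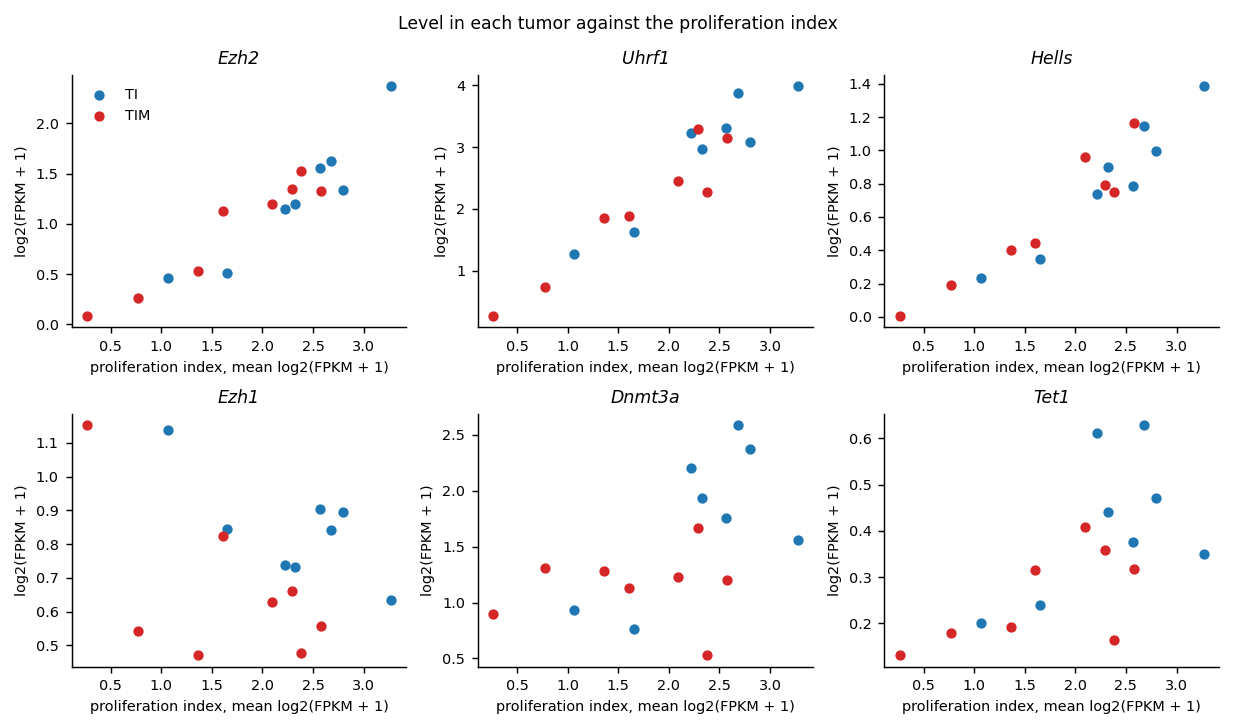
Level of 6 of the genes, as log2(FPKM + 1), against the proliferation index in TI and TIM tumors (8 libraries each, points are libraries). Ezh2, Uhrf1 and Hells rise along the index in both groups, Ezh1 does not, and TIM library 5 is the point at an index of 0.263.

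The genes most like each of the 8 were sought among tested genes by the correlation of residuals from the group means over 24 libraries, as a description. Uhrf1 was closest to Ccnf (r = 0.973), Mcm5 (0.966) and Mcm6 (0.966), the last pair subunits of the replicative helicase. Hells was closest to Kntc1 (0.983) and Kif2c (0.975), Ezh2 to Sinhcaf (0.962), Ung (0.961) and Gins1 (0.959), and Dnmt1 to Cdc25a (0.959), with Smarcc1 (0.930) also among its nearest. Suz12 had Crlf3, the gene it overlaps, as its closest (0.929), then Vrk1 (0.927) and Tgfbr1 (0.924). Eed was closest to Zfp326 (0.874), Mtrex (0.833) and B3galnt2 (0.819). Dnmt3a stood with Tecpr2 (0.914) and the adenylate cyclase gene Adcy1 (0.897), and Ezh1 with Six5 (0.894), Jdp2 (0.888) and S1pr3 (0.886). Among the genes themselves, Uhrf1 and Hells had r = 0.927, Ezh2 and Hells 0.904 and Ezh2 and Uhrf1 0.899, while Ezh1 had negative values with each of the other 7, from -0.205 with Dnmt3a to -0.638 with Eed.

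Of 8 further PRC2 partners, all tested, 2 rose in TI vs AG (Mtf2 by 0.71 with limma FDR 0.00661, and Phf19 by 0.64 with limma FDR 0.00183, both Polycomb-like proteins that guide PRC2 to CpG islands) and none fell, a share of risen genes near the 24.6% of all tested genes. In TIM vs AG 1 rose, Aebp2 (0.47, limma FDR 0.000958), and 1 fell, Rbbp7 (-0.53, limma FDR 0.00925), against 22.5% and 28.5% of all tested genes. Phf19 was lower in TIM than in TI (0.255 ± 0.133 against 0.901 ± 0.452 FPKM, SD, n = 8 each, log2 fold change -0.57, limma FDR 0.00189) and Aebp2 was higher (0.43, limma FDR 0.000985). Of all tested genes, 12.9% were lower and 10.0% higher in TIM vs TI. Phf19 reached 1 FPKM in 3 TI libraries and in no library of another group. It was tested through the group where it is high, so both its calls were favored by that. Mtf2 averaged 0.642 ± 0.0832 FPKM in AG and 0.393 ± 0.127 in AGM, against 1.77 ± 0.695 in TI and 1.22 ± 0.559 in TIM. It thus passed through the tumors, and its higher calls were favored likewise. Aebp2 averaged 1.43 ± 0.319 FPKM in TIM, against 0.737 ± 0.0330 in AG and 0.802 ± 0.143 in TI. The higher calls of Aebp2 in TIM were favored in the same way. Rbbp7 (-0.64) and Jarid2 (-0.44) fell in AGM vs AG, where 14.0% of all tested genes fell. TIM vs AGM had 3 higher, led by Mtf2 (0.63) and Jarid2 (0.56), and 1 lower, Phf1 (-1.01). Of all tested genes, 31.9% were higher there, a share near that of the list, and 33.4% lower. The median log2 fold change of the list was 0.14 in TI vs AG and -0.20 in TIM vs TI.

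PRC1, which ubiquitinates histone H2A at Polycomb targets, had 18 of 20 listed genes tested. In TI vs AG 8 rose, led by Pcgf2 (6.29 ± 1.95 FPKM in TI against 1.57 ± 0.138 in AG, log2 fold change 1.46, limma FDR 1.10e-05) and Phc1 (1.42, limma FDR 6.23e-06), and 1 fell, against 24.6% and 27.7% of all tested genes. In TIM vs AG 5 rose, near the 22.5% of all genes, again led by Phc1 (1.28) and Pcgf2 (0.80), and 2 fell, among them Yaf2 (-0.44). In AGM vs AG 3 rose, among them Cbx7 (0.91), and 3 fell, with Bmi1 (-1.05) and Rnf2 (-0.56) first, both counts near the 14.6% and 14.0% of all genes. TIM vs TI had 4 lower and none higher, led by Pcgf1 (-0.90) and Pcgf2 (-0.66), against 12.9% and 10.0% of all tested genes. TIM vs AGM had 10 higher, led by Phc1 (1.26) and Cbx2 (0.98), and 3 lower, among them Cbx7 (-0.91), against 31.9% and 33.4%. Median log2 fold changes were 0.41 in TI vs AG and 0.14 in TIM vs AG.

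Among 5 genes that erase the Polycomb marks, 3 were tested. The H3K27 demethylase gene Kdm6b (0.87, limma FDR 0.00891) and the H2A deubiquitinase gene Bap1 (0.36, limma FDR 0.00529) rose in TI vs AG, where 24.6% of all tested genes rose. Bap1 also rose in TIM vs AG (0.51, limma FDR 0.000220) and in TIM vs AGM (0.71), where Kdm6b (0.58) and Asxl1 were the other 2 of the 3 called higher. In AGM vs AG Asxl1, a partner of BAP1, fell (-0.59, limma FDR 0.0359), and in TIM vs TI none of the 3 was called. Over all tested genes, 22.5% were higher in TIM vs AG, 31.9% higher in TIM vs AGM and 14.0% lower in AGM vs AG.

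Partners of DNA methylation, its readers and its removal had 13 of 15 genes tested, with 5 higher and 3 lower in TI vs AG, against 24.6% and 27.7% of all tested genes. The ligase gene Lig1 (1.86, limma FDR 0.000222), whose product acts in replication and binds UHRF1, and the thymine DNA glycosylase gene Tdg (1.39, limma FDR 0.000634), which completes TET-dependent demethylation, rose most. Dnmt3l, a cofactor of the new-methylation enzymes, had 1.27 ± 0.103 FPKM in AG and 1.11 ± 0.265 FPKM in AGM, against 0.0178 ± 0.0195 FPKM in TI and 0.00517 ± 0.00518 FPKM in TIM (log2 fold change -1.15 in TI vs AG, limma FDR 4.68e-12). It reached 1 FPKM in the 3 AG libraries, in 3 of AGM and in no tumor library. Dnmt3l was thus tested through the glands, where it is high, and its lower calls in tumors were favored by that. The reader gene Mbd2 also fell (-0.79 in TI and -0.81 in TIM against AG). In TIM vs AG 3 rose, among them Tdg (0.98) and Lig1 (0.90), and 3 fell, both near the 22.5% and 28.5% of all genes. TIM vs TI had 4 lower, led by Lig1 (-0.96, limma FDR 0.0160) and Trim28 (-0.47), and none higher, against 12.9% and 10.0% of all tested genes. AGM vs AG had 3 lower, led by Mbd3 (-0.68) and Usp7 (-0.61), and none higher, against 14.0% and 14.6%. TIM vs AGM had 6 higher, led by Tdg (1.58) and Lig1 (1.37), and 2 lower, Dnmt3l (-1.06) and Mbd2 (-0.74), against 31.9% and 33.4%. The list's median log2 fold change was 0.24 in TI vs AG and -0.47 in AGM vs AG.

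Genes known as targets of the marks gave few tested values. Of 8 germline genes that DNA methylation keeps silent in somatic cells, 2 were tested, and neither was called in TI vs AG, TIM vs AG or TIM vs TI. Ddx4 had 5.73 ± 4.98 FPKM and Sycp3 had 4.08 ± 1.85 FPKM in AGM (SD, n = 5), against 0.00312 and 0.00745 FPKM on average in AG. For each gene, 1 read stood behind every AG value, against 334 to 3161 (Ddx4) and 145 to 772 (Sycp3) in AGM. These are reads after the authors' batch correction. AGM shared no sequencing run with AG, so group and run cannot be told apart in these values. Both reached 1 FPKM in the 5 AGM libraries and 1 of TIM, so they were tested through the group where they are high, and their calls (higher in AGM vs AG, lower in TIM vs AGM) were favored by that. The 8 germline genes summed to between 4.02 and 18.1 FPKM in AGM libraries, and 6 of the 8 stayed below 0.05 FPKM in all of them. Of 7 genes reported as repressed by EZH2 in neuroblastoma or as cell-cycle inhibitors held silent by Polycomb, 5 were tested. The cell-cycle inhibitor gene Cdkn1c (0.241 ± 0.149 FPKM in TI, 10.1 ± 11.51 in TIM, 139 ± 32.8 in AGM and 6.31 ± 0.759 in AG) and the chaperone gene Clu fell in TI vs AG (-2.56 and -2.41, limma FDR 0.00220 and 0.00143). None of the 5 was called in TIM vs AG. Cdkn1c (2.40) and Clu (1.34) were higher in TIM than in TI. They were among 3 genes higher in AGM vs AG (4.23 and 2.49) and among 3 lower in TIM vs AGM (-4.39 and -3.57). Over all tested genes, 27.7% fell in TI vs AG and 33.4% in TIM vs AGM, while 14.6% rose in AGM vs AG and 10.0% in TIM vs TI. The cortex marker sums given above were likewise higher in AGM and lower in TI than in AG. In TIM these sums were at most 9.28 FPKM, while neither Cdkn1c nor Clu was called against AG. The part of cortex in these values was not tested.

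Markers of other cells moved with the gland-to-tumor contrasts. Of 8 cortex markers, 7 fell in TI vs AG and 7 in TIM vs AG, and all 8 rose in AGM vs AG. Of 10 sympatho-adrenal markers, 6 rose in TI vs AG, 6 in TIM vs AG and 4 in AGM vs AG, and none fell in these contrasts. Endothelial markers summed to between 15.4 and 16.5 FPKM in AG and had medians of 3.94 FPKM in TI and 3.804 FPKM in TIM, and leukocyte markers to between 46.8 and 72.8 FPKM in AG with medians of 11.1 FPKM in TI and 11.6 FPKM in TIM. TI library 4, however, reached 19.8 FPKM for endothelial markers, above every AG library. Adipocyte markers fell in 5 of 5 genes in either tumor group. Of the 20 proliferation genes, 17 rose in TI vs AG, 8 in TIM vs AG and 18 in TIM vs AGM, none was called in AGM vs AG, and 4 were lower in TIM vs TI, among them Mki67 (-1.005, limma FDR 0.00367). Mki67 reached at most 0.308 FPKM in AG and 0.0866 FPKM in AGM, and Rrm2 and Plk1 averaged 0.727 and 0.419 FPKM in AG. Such genes passed the filter through the tumors, where they are high, so their higher calls there were favored. Over all tested genes, 24.6% rose and 27.7% fell in TI vs AG, 22.5% and 28.5% in TIM vs AG, and 14.6% and 14.0% in AGM vs AG. In TIM vs AGM 31.9% rose, and in TIM vs TI 12.9% were lower. The part of these cells and of proliferation in the values of the 10 chromatin genes was not tested.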

How the data were processed

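Poly(A)-enriched, strand-specific libraries of 24 mouse samples were analysed. The deposited values were FPKM of 21833 genes. Per the labels and the study's methods, the authors trimmed reads with cutadapt 2.8, aligned them with HISAT2 2.1.0 to mm39, handled alignments with SAMtools 1.10, counted with featureCounts 2.0.0, applied ComBat-seq against a batch effect and normalized them by TMM in edgeR 3.40. Annotation and strand setting of the counting are not given in the sources used here. The deposited table also held the authors' log2 fold changes, p-values and FDR against AG, which were not used. Columns were assigned to groups by name.

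Multiplied by gene length, FPKM were whole multiples of 1 read (within 0.05) for 100.0% of values below 1000 reads, which returned the reads after the authors' correction. Genes above 1000 FPKM took up 86.1% to 98.6% of these reads in AGM and 64.5% to 97.3% in TIM, but at most 2.21% in AG and TI, so depth was taken outside those 126 genes. Read numbers cover counting error only.

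limma 3.58.1 (R 4.3.3; lmFit, contrasts.fit, eBayes with trend) took log2(FPKM + 1) of those 10171 genes that reached 1 FPKM in 3 or more libraries, in 1 fit of 4 groups without covariates, with Benjamini-Hochberg adjustment and a threshold of 0.05. The scale understates the change of low genes. Ratios used a pseudocount of 0.01 FPKM. Exact two-sided permutation tests served for ratios, Dnmt3b and Tet1 (adjusted over 5 contrasts) and correlations (over 20 relations). No 2 columns were identical. The code was tested on simulated data.

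The 10 genes and all lists were chosen with earlier results of these data known. Named are all 10 genes, up to 2 called genes per list, contrast and direction with the largest fold change, Mki67, Igf2bp1, Mycn and the 3 genes most like each tested one. Some genes that this rule names are not reported here. Cntnap1, Cul1, Crlf3 (overlaps), Asxl1 in TIM vs AGM and the markers' sums were added after values were seen. Alternatives were another pseudocount, other filters, recomputed FPKM, limma-voom on recovered reads, array weights, fits of the compared groups alone and leaving out each library. Promoters came from RefSeq on GRCm38.p6 and gene positions from GENCODE M39 on GRCm39 (mm39).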

Additional observations from a re-analysis of the deposited data

Results flagged for a closer look

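Of 39 sets of libraries examined for an outlying value (10 genes, both ratios and the proliferation index in AGM, TI and TIM), 2 held a library far from the others, where chance flags about 1 in 20. Eed in TI library 3 stood at 1.22 on the log2(FPKM + 1) scale, above the other 7. Hells in AGM library 2 stood at 0.12 on the same scale, above the other 4.

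The change from AG differed between the tumor groups for 4 genes by the test of TIM vs TI itself. The log2 fold change of Suz12 was lower in TIM by a difference of -0.71 (limma FDR 0.0127), and that of Dnmt3a by -0.61 (limma FDR 0.0394). Dnmt3b was lower by -3.58 RPM (exact permutation, adjusted p = 0.0249) and Tet1 by -14.6 RPM (exact permutation, adjusted p = 0.0303). In the libraries behind these values, 7 of 8 TI samples were labelled with a homozygous transgene, and 6 of 8 were in run 1, which held no TIM sample. The labels of TIM gave no zygosity, but the study reports both transgenes at Rosa26 and no wildtype Rosa26 locus in these mice. By that account TIM mice carried 1 copy of each transgene, so the IGF2BP1 copies also differed between the groups. Copy number and run cannot be told apart from the second transgene.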

How the results depend on the processing

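No paired analysis was possible because the columns carried no sample number, and a fit with the sequencing run was not run for the same reason. Where all libraries had to reach 1 FPKM, Dnmt1 was the 1 gene of the 10 left, so 1 was called in TIM vs AGM and 0 elsewhere, and the genes called numbered 1627 in TI vs AG and 1534 in TIM vs AG, then 569 for AGM vs AG, 737 for TIM vs TI and 1944 for TIM vs AGM. Without the filter, the counts over all genes stayed within 1.5 times of 5327, 5190, 2908, 2332 and 6639. limma-voom called 3 of the chromatin genes in TI vs AG. Array weights called 8 in TI vs AG, 8 in TIM vs AG and 5 in AGM vs AG, with 7375 genes called in the last. Recomputed FPKM called 4604 genes in AGM vs AG. Fits of the compared groups alone called 8 chromatin genes and 6312 genes in AGM vs AG, and 1 and 1309 in TIM vs TI. A pseudocount of 0.1 called 1 chromatin gene in TIM vs TI. The cause of these differences was not tested.

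Signs turned for small differences that were not called. Ezh1 in AGM vs AG went to -0.079 with recomputed FPKM and to -0.093 with limma-voom, Eed in TIM vs AGM to -0.015 with array weights and, over all libraries left out, between -0.055 and 0.050, below 0 when AGM library 5 or TIM library 3, 4 or 6 was left out, and the log2 ratio of Uhrf1 to Dnmt1 in AGM vs AG to 0.047 with a pseudocount of 0.1. With 1 library left out, the correlation with the proliferation index in TIM ranged from -0.776 to 0.0185 for Ezh1 and from -0.208 to 0.559 for Dnmt3a, turning without library 5 and, for Dnmt3a, also without library 7.

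Leaving out 1 library at a time gave 3 to 5 chromatin genes called in TI vs AG, 2 to 3 in TIM vs AG, 1 to 2 in AGM vs AG, 1 to 3 in TIM vs TI and 6 to 7 in TIM vs AGM, and 1896 to 2923 genes in AGM vs AG, where leaving out any of the 3 AG libraries gave the low values. The log2 ratio of Ezh2 to Ezh1 ranged from 2.62 to 3.27 in TI vs AG, 2.22 to 3.12 in TIM vs AG, -1.81 to -1.60 in AGM vs AG and -0.77 to 0.19 in TIM vs TI. With 2 AG libraries left, adjusted exact permutation p in TI vs AG was 0.0556 and in AGM vs AG 0.0794, where the smallest p before adjustment is 0.0222 and 0.0476, so neither says anything about stability. The log2 ratio of Uhrf1 to Dnmt1 ranged from 1.88 to 2.38 in TIM vs AG and -1.20 to -0.70 in TIM vs TI, the latter past the threshold without TI library 6 or TIM library 8 (exact permutation, adjusted p = 0.0396 and 0.0381).

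Scaling moved the median log2 fold change of all genes by up to -0.50 (AGM vs AG, limma-voom), and it was -0.15 in TIM vs AG, -0.12 in TIM vs TI and 0.31 in TIM vs AGM with recomputed FPKM. The split of calls then went from 2293 higher and 2897 lower to 2062 and 3265 in TIM vs AG, from 1017 and 1315 to 816 and 1879 in TIM vs TI, and from 3241 and 3398 to 4283 and 2656 in TIM vs AGM. With limma-voom it was 1585 and 3213, 581 and 1587, and 4028 and 2479, and 596 and 3589 in AGM vs AG. Depth limits Dnmt3b, Tet1 and, in AGM above all, Ezh2, Hells and Uhrf1. Of the 5 AGM libraries, 5 had under 100 reads of Ezh2 (38 to 84), 5 of Hells and 4 of Uhrf1, as did TIM library 5 for each of these.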
